A study of Macaca mulatta with 13 samples.

Results

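S1PR1, CCR7, LEF1 and KLF3 are 4 genes, of 34628 in the deposited count table, tied to the movement of lymphocytes out of tissue and into lymph nodes. They were chosen by gene symbol, and each symbol stands once in the table. They were described in T cells of the rhesus macaque (Macaca mulatta) colon, with B cells set beside them. The study concerns acute graft-versus-host disease (GVHD) of the gut, an attack of donor T cells on the recipient's tissues after transplantation of blood-forming cells. Viable leukocytes, sorted for the surface protein CD45, came from 4 colon samples of the transplanted cohort and 4 of an untransplanted, healthy cohort. The sort separated host from donor cells of 2 GVHD samples by MAMU-A001, an MHC class I molecule of macaques, and for 2 others this was done by computation. Sorted cells were negative for the intravascular CD45 label. The labels give 4 host fractions, 2 donor fractions, 3 GVHD samples with host and donor cells combined, and 4 healthy controls. These 13 libraries came from 8 colon samples, so they are not 13 separate samples. The labels state neither the animals' age nor the day after transplantation.

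S1PR1 is the receptor by which lymphocytes follow sphingosine 1-phosphate (S1P) out of tissue into lymph and blood. CD69, a surface protein of activated and tissue-resident T cells, is known to pull S1PR1 off the cell surface, so RNA and surface receptor can differ. CCR7 is the receptor for the chemokines CCL19 and CCL21, and brings naive and central memory T cells, and B cells, into lymph nodes. LEF1 is a transcription factor that works with its relative TCF7 and with beta-catenin in the development and upkeep of naive T cells. KLF3 is a transcription factor of the Kruppel-like family that mostly represses its targets through CTBP partners, while its relative KLF2 is known to switch on S1PR1. In tissue-resident T cells of mice, S1PR1, CCR7 and KLF2 are known to be kept low, and integrins such as ITGAE and ITGA1 to be kept high.

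The 13 libraries are numbered in the barcodes, but no file or label used here ties these numbers to the labels. Libraries are therefore named by their number, no group was compared with another, and no p-value was computed. Libraries 4 and 6 shared 5323 barcodes, while other pairs shared at most 55, so library 4 was left out. The other 12 libraries held from 3205412 to 19655788 UMIs (unique molecular identifiers, each marking 1 captured RNA molecule) and 20567 cells kept by the authors. Libraries 1, 2, 3, 5, 6 and 7 were tied to each other, directly or through another of them, by pairs that shared at least 10 barcodes, and are called the first barcode set. The rest, libraries 8 to 13, are called the second. Pairs within the first set shared 6 to 55 barcodes, pairs within the second 1 to 10, and pairs between the sets at most 3, so the second set is the remainder and is only loosely tied. T cells had at least 3 UMIs of CD3D, CD3E and CD3G together and under 2 of MS4A1 and CD79A, which left 11698 cells with a median of 3152.5 UMIs. Markers outside the gate went with the name, since CD2, CD6 and TRAC had median levels of 248, 63.0 and 785 CPM (a gene's UMIs over all UMIs of those cells, at the usual scale) over the libraries' T cells, against 1.68, 2.41 and 11.9 CPM over the libraries' B cells. Plasma markers nonetheless summed to a median of 6258 CPM in T cells, beside 3741 CPM for the 6 T markers, and ran from 127 CPM in library 9 to 38318 CPM in library 6. JCHAIN, a gene of secreted antibody, was at 104 CPM in the T cells of library 9, the highest library for CCR7 and KLF3, and at 34692 CPM in those of library 10, the lowest for CCR7 of the 11 libraries described below. Libraries 1, 2, 3, 11 and 12, with 3385 to 5881 CPM of JCHAIN, had CCR7 at 96.4 to 185 CPM. Libraries 5 and 13, with 9457 and 15738 CPM of JCHAIN, had CCR7 at 74.0 and 78.7 CPM. Libraries 6 and 8 did not keep this order. Library 6 had the most JCHAIN, 38219 CPM, with CCR7 at 99.0 CPM and LEF1 at 33.0 CPM, from 12 and 4 UMIs. Library 8 had 23040 CPM of JCHAIN, with CCR7 at 128 CPM and KLF3 at 30.0 CPM. The part of this RNA in the levels below was not tested. Library 7 had 9 T cells and no UMI of any of the 4 genes, so levels are given for the 11 libraries with at least 20. Library 6 had 38 T cells.

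S1PR1, the egress receptor, was sparse in colon T cells, and most of its RNA came from a single library. In T cells its level was 22.2 CPM in library 2, 18.6 CPM in library 9, 8.39 CPM in library 3, 5.86 CPM in library 11 and 5.06 CPM in library 8. It was 2.78 CPM in library 5, 2.47 CPM in library 1, 1.72 CPM in library 12, 0.951 CPM in library 10 and 0.596 CPM in library 13. Library 6 had no UMI of it, which at 3 counts allows up to 24.8 CPM. Library 2 gave 56.3% of the 387 S1PR1 UMIs but 18.5% of the T cells, and library 9 gave 17.8% of the UMIs and 11.1% of the cells. No pair of neighbours in this order had counting intervals (exact Poisson, 95%, counting error only) that stood apart, although libraries 2 and 9 at the top stood apart from library 13 near the bottom. The other S1P receptors measured were rarer still, with 13 UMIs of S1PR2, 31 of S1PR3 and 9 of S1PR5 in all T cells.

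CCR7, the lymph node homing receptor, was found in every library's T cells with at least 20 cells, from 33.3 CPM in library 10 to 265 CPM in library 9, a span of 7.94-fold. Library 3 followed with 185 CPM, and libraries 8, 1 and 12 had 128, 122 and 115 CPM. Libraries 2, 6, 11, 13 and 5 had 102, 99.0, 96.4, 78.7 and 74.0 CPM. The intervals of neighbours stood apart above library 3, between 3 and 8, between 12 and 2, and between 5 and 10, and the other 6 neighbouring pairs overlapped. The 2 barcode sets had nearly the same median, 102 CPM in the first and 106 CPM in the second.

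LEF1, the naive T cell factor, was close to the same level in libraries 3, 11, 2 and 9, at 33.6, 29.7, 29.6 and 29.6 CPM. It was lower in 6 others. Library 6 had 33.0 CPM from 4 UMIs in 38 T cells, too few to place it closely. Libraries 1 and 8 had 15.8 and 10.9 CPM, and libraries 12, 5, 13 and 10 had 5.49, 5.21, 4.17 and 0.951 CPM. Only the steps from library 9 to 1 and from library 8 to 12 had intervals apart. Library 10 held 1 LEF1 UMI among 209 T cells. The medians of the sets were 29.6 CPM in the first and 8.20 CPM in the second, with ranges that overlapped.

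KLF3 was highest in library 9 at 56.8 CPM and in library 8 at 30.0 CPM, both with intervals apart from the next library. Libraries 12, 6, 11, 13, 1 and 2 lay between 17.1 and 9.47 CPM, library 10 had 6.66 CPM, and libraries 3 and 5 had 1.53 and 0.695 CPM, from 2 UMIs each. The median was 9.47 CPM in the first barcode set and 15.7 CPM in the second. Related genes differed further between the sets. KLF13, another Kruppel-like factor, ranged from 0 to 18.7 CPM in the first set and from 61.8 to 294 CPM in the second, KLF2 had medians of 0 and 11.9 CPM, and TCF7 had medians of 2.78 and 16.9 CPM. Libraries were made with 2 versions of the 10x Genomics kit, and the labels do not tie a version to a library, so the part of the kit in these levels was not tested. Library 9 was also the highest for KLF2 (32.9 CPM), TCF7 (26.1 CPM) and CD28 (231 CPM), a costimulatory receptor.

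**Figure D1:**
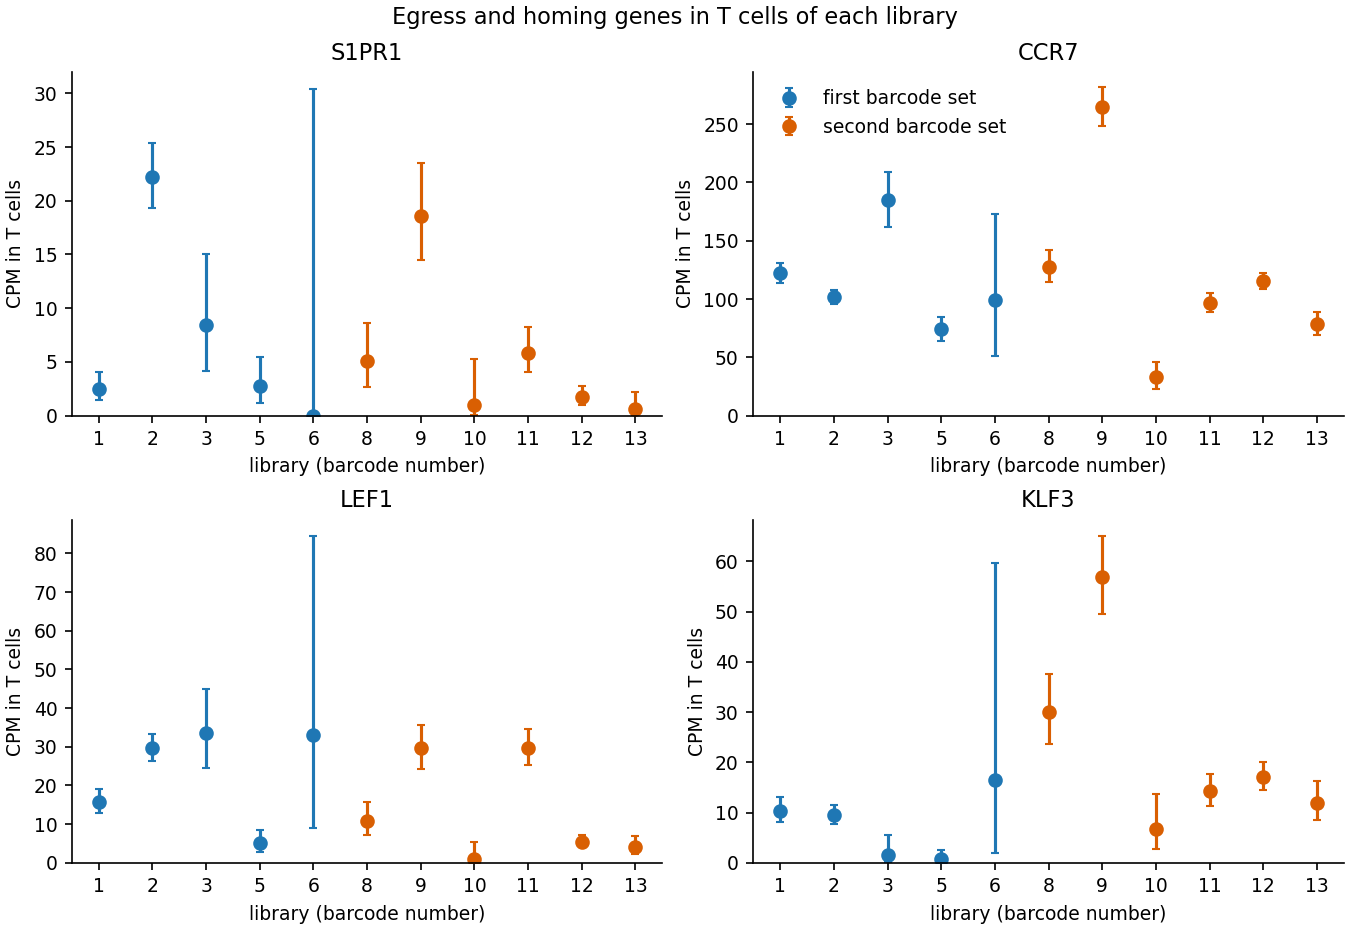
Level (CPM, y axis) of S1PR1, CCR7, LEF1 and KLF3 in the T cells of each library with at least 20 T cells (x axis, barcode number); bars are exact Poisson 95% intervals of the counts, and colours mark the 2 barcode sets. Library 9 was highest for CCR7 and KLF3, and library 2 for S1PR1, at 22.2 CPM.

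Few cells held a UMI of these genes. Of T cells, 22.3% had a CCR7 UMI, 5.95% a LEF1 UMI, 5.52% a KLF3 UMI and 2.91% an S1PR1 UMI. After each cell was thinned to 1500 UMIs, these shares were 13.96%, 2.64%, 2.49% and 1.38%. Plasma cells, which should lack CCR7 and LEF1, were set beside them as a rough gauge of RNA free in the droplets. Thinned plasma cells had a CCR7 UMI in 0.336%, a LEF1 UMI in 0.0672% and a KLF3 UMI in 0.538% of 1488 cells, whose median was 11054 UMIs before thinning. No plasma cell had an S1PR1 UMI. All 4 shares in thinned T cells were above those in thinned plasma cells, while before thinning KLF3 was found in 3.16% of the deeper plasma cells. Thinning takes a larger part of the UMIs from these deeper cells, free RNA included, so the thinned shares can understate the background in T cells. Plasma cells were also unevenly spread, with 64 in library 2 and 12 in library 9, the 2 libraries with the most S1PR1 UMIs. The part of free RNA in the T cell shares is therefore not settled by these values.

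T cells were set against B cells of the same library to ask how far the 4 genes mark T cells in this tissue. LEF1 was found mostly in T cells. In the 10 libraries that held at least 20 T and 20 B cells, it had 823 UMIs in T cells and 6 in B cells, and it was higher in T cells in 10 of 10 libraries, by a median log2 ratio of 1.20 (range 0.13 to 2.08, with 10 CPM added to both levels). TCF7, its relative, had 543 UMIs in T cells and 7 in B cells and was likewise higher in all 10. Of 5880 genes measured (a mean of at least 10 CPM over the libraries' T cells), 21% were higher in T cells in every library and 1.19% lower, and the median gene had a log2 ratio of 0.45, so a higher level in T cells was common.

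The B gate, at least 2 UMIs of MS4A1 and CD79A together, held 4459 cells, and in part of the libraries most of them resembled antibody-secreting cells. JCHAIN reached 90014 CPM in the B cells of library 5, and MS4A1 with little MZB1 was found in 1.64% to 20.5% of B cells in libraries 1, 5, 10, 12 and 13 but in 47.7% to 93.0% in libraries 2, 3, 8, 9 and 11. CCR7 compared differently with all B cells and with this part of them. Against all B cells it was higher in T cells in 8 of 10 libraries, with a median log2 ratio of 1.48 (range -0.38 to 2.67). Against B cells with an MS4A1 UMI and fewer than 3 MZB1 UMIs, a comparison added after the values were seen, it was higher in T cells in 3 of 6 libraries, with a median of -0.30 (range -2.12 to 1.38).

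CCR7 in these 6 libraries had 102 CPM in T cells and 475 CPM in B cells of library 2, and 115 CPM in T cells and 391 CPM in B cells of library 12. It had 128 CPM in T cells and 221 CPM in B cells of library 8, and 265 CPM in T cells and 237 CPM in B cells of library 9. In library 3 it had 185 CPM in T cells and 64.7 CPM in B cells, and in library 11 it had 96.4 CPM in T cells and 59.0 CPM in B cells. B cells with MS4A1 thus ranged more widely in CCR7 than T cells did, and they numbered 52 in library 2 and 34 in library 12. LEF1 stayed higher in T cells in 6 of 6 libraries (median log2 ratio 1.95). Here 12.7% of genes were higher and 14.3% lower in T cells in every library.

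S1PR1 was higher in T cells than in all B cells in 10 of 10 libraries, where 21% of genes measured were. With a mean under 10 CPM it was not among the genes measured, and its intervals stood apart in 3 libraries. B cells of libraries 1, 5, 10, 12 and 13 had no S1PR1 UMI, so any UMI in T cells counted as higher there. T cells of libraries 10 and 13 had 1 and 2 S1PR1 UMIs. The median log2 ratio of S1PR1, 0.27, was below the 0.45 of the median gene. Adding 10 CPM shrinks the ratio of so low a gene, and with 1 CPM added the median was 1.62, a setting for which no value of the median gene is given. Over the 10 libraries together S1PR1 had 8.40 CPM in T cells and 1.93 CPM in B cells. Against B cells with MS4A1 it was higher in T cells in 4 of 6 libraries, with a median of 0.47 beside -0.13 for the median gene. Its intervals stood apart in library 3, with 8.39 CPM in T cells and 1.24 CPM in these B cells, and in library 9, with 18.6 CPM in T cells and 3.89 CPM in these B cells. In libraries 8 and 11 T cells had 5.06 and 5.86 CPM and these B cells 6.30 and 6.72 CPM, with intervals that overlapped. KLF3 was higher in T cells than in all B cells in 8 of 10 libraries, by a median of 0.51, close to the 0.45 of the median gene. Against B cells with MS4A1 it was higher in T cells in 5 of 6 libraries, by a median of 0.13 beside -0.13 for the median gene. The intervals stood apart in library 9 alone, with 56.8 CPM in T cells and 13.1 CPM in these B cells, and library 12 was the exception, with 17.1 CPM in T cells and 26.1 CPM in these B cells, from 3 UMIs.

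**Figure D2:**
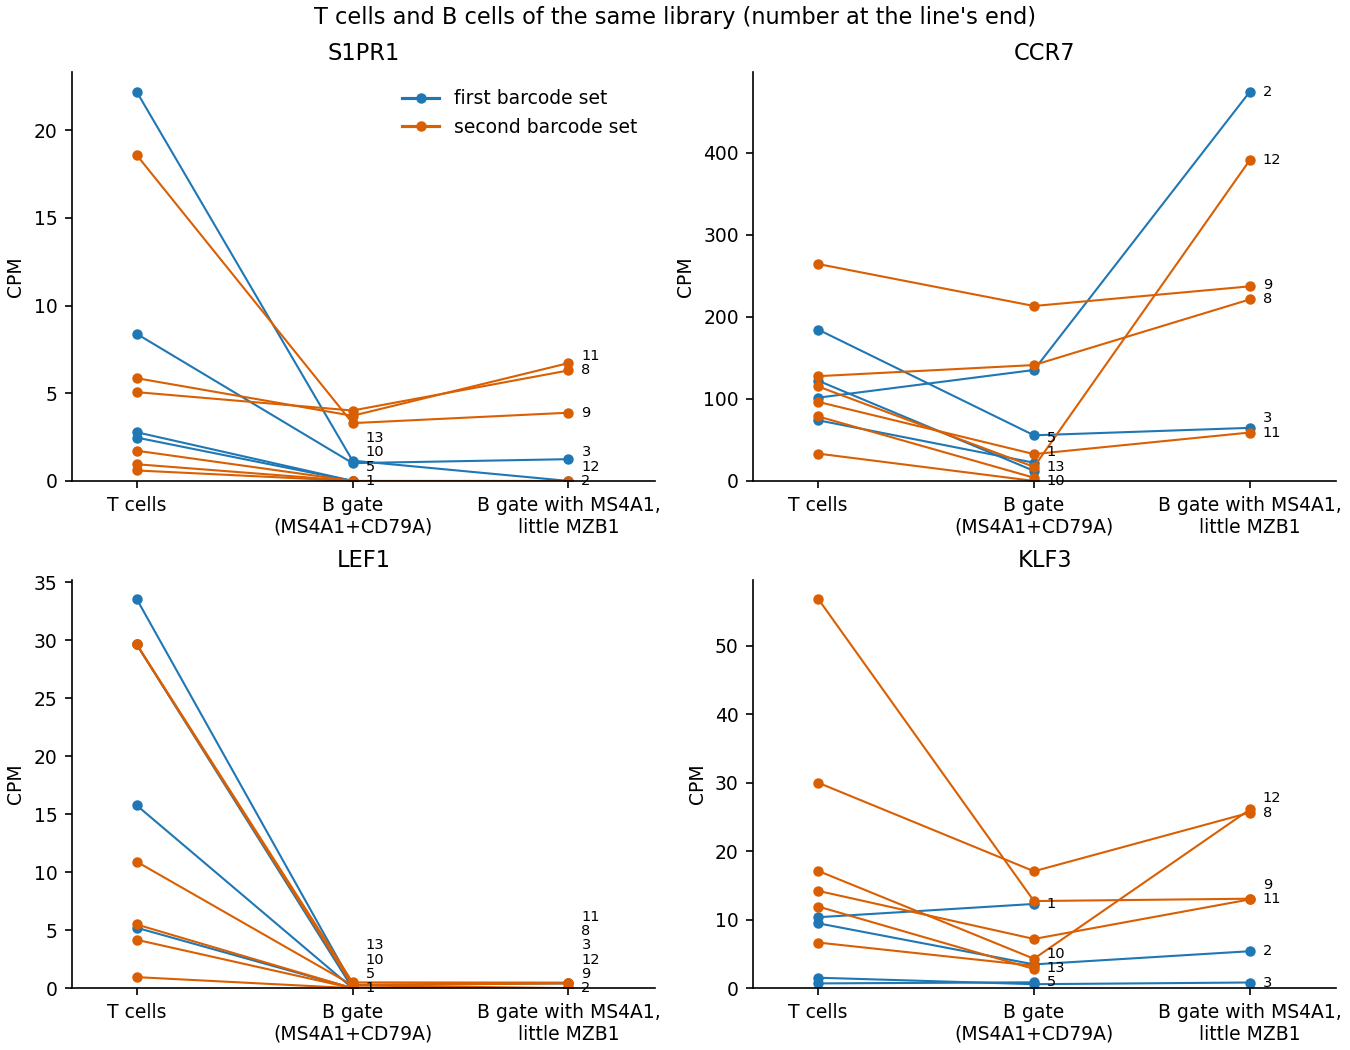
Level (CPM, y axis) of the 4 genes in T cells, in all cells of the B gate, and in B-gated cells with an MS4A1 UMI and fewer than 3 MZB1 UMIs, with 1 line per library and colours for the barcode sets. LEF1 dropped to near 0 in B cells of every library, while CCR7 in B cells with MS4A1 ran from 59.0 to 475 CPM.

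CD8A T cells (a CD8A UMI and none of CD4) were compared with CD4 T cells (a CD4 UMI and none of CD8A) of the same library. The 9 libraries with at least 20 of each held 3668 CD8A and 1927 CD4 T cells. All 4 genes had medians below 0, CCR7 and LEF1 most clearly, and none of the 3 that passed the filter on low levels was lower in every library. S1PR1, with a mean under 10 CPM, did not pass and is given by its values alone. The filter left 5882 genes, of which CD8A T cells had 1.7% higher and 3.49% lower in every library, and the median gene had a log2 ratio of -0.04.

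CCR7 was lower in CD8A T cells in 8 of 9 libraries, with a median log2 ratio of -0.69 (range -1.85 to 0.05). It had 109 CPM in CD8A and 275 CPM in CD4 T cells of library 8, 100.1 CPM in CD8A and 259 CPM in CD4 T cells of library 12, and 19.6 CPM in CD8A and 96.6 CPM in CD4 T cells of library 5. Library 11 was the exception, with 78.1 CPM in CD8A and 75.0 CPM in CD4 T cells. The counting intervals of CD8A and CD4 T cells stood apart in 5 libraries, 2, 5, 8, 9 and 12, all with the lower level in CD8A T cells.

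LEF1 was lower in CD8A T cells in 8 of 9 libraries, with a median log2 ratio of -0.53 (range -1.89 to 0.22). It had 15.8 CPM in CD8A and 52.0 CPM in CD4 T cells of library 2, and 0.923 CPM in CD8A and 30.5 CPM in CD4 T cells of library 12, and in these 2 libraries alone the intervals stood apart. Library 3, the exception, rests on 24 CD8A T cells with 3 LEF1 UMIs. Library 12 held 1284 CD8A and 125 CD4 T cells, the most uneven pair.

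S1PR1 had 16.9 CPM in CD8A and 30.8 CPM in CD4 T cells of library 2, and 0.739 CPM in CD8A and 11.9 CPM in CD4 T cells of library 12, and the intervals stood apart in both. In the other 7 libraries it had from 0 to 7 UMIs in CD8A T cells and from 1 to 11 in CD4 T cells, and over all 9 its median log2 ratio was -0.12. With every cell thinned to 1500 UMIs that median was -0.73. KLF3 had no common direction, being lower in CD8A T cells in 5 libraries, higher in 3 and without a UMI on either side in library 3, with a median of -0.16. Its largest difference was in library 12, with 14.6 CPM in CD8A and 40.6 CPM in CD4 T cells. KLF3 had a median of 0.03 in the second barcode set alone.

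**Figure D3:**
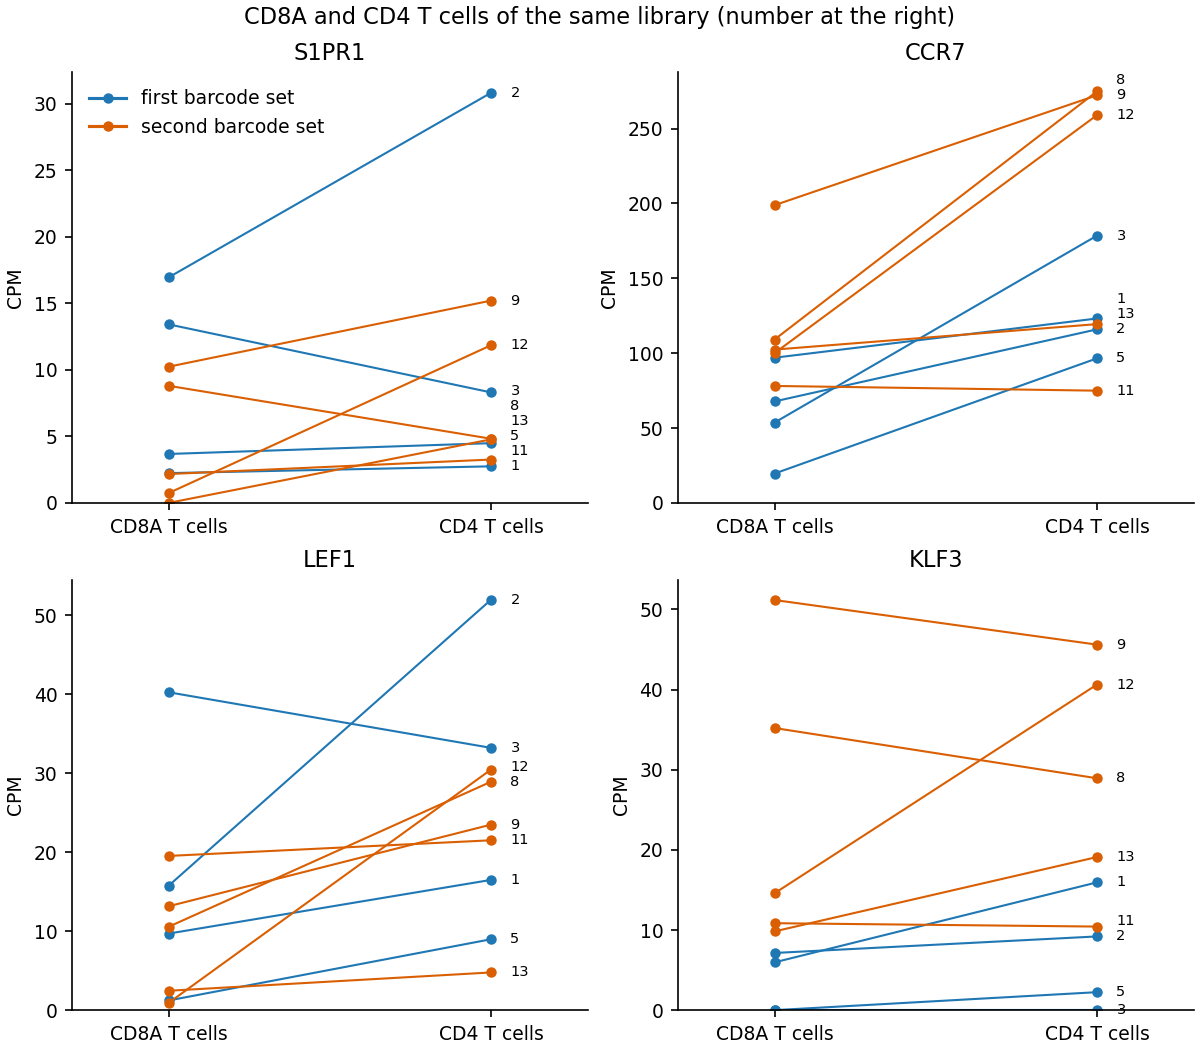
Level (CPM, y axis) of the 4 genes in CD8A T cells (left) and CD4 T cells (right) of the same library, with 1 line per library, its number at the right (shifted up where numbers would overlap) and colours for the barcode sets. CCR7 and LEF1 were lower in CD8A T cells in 8 of 9 libraries each.

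Genes of the egress and homing list leaned in part the same way as CCR7 in CD8A T cells. The list also holds genes with other roles, such as the costimulatory receptor CD28. Of 26 genes listed, 24 were in the table and 17 were measured. Of these, 4 were lower in CD8A T cells in every library and 0 higher, where 3.49% of all genes were lower and 1.7% higher. Medians lay below 0 for 12 and above 0 for 5, where 41.1% of all genes measured had medians above 0. CD28 was lower by a median log2 ratio of -1.19, ITGB2, the beta chain of leukocyte integrins, by -1.14, CXCR5, the receptor that draws cells to B cell follicles, by -1.06, and GPR183, an oxysterol receptor that positions lymphocytes, by -0.83. FOXP1, a factor that keeps T cells quiescent, was lower in 8 of 9 libraries (median -0.71) and TCF7 in 7 of 9 (median -0.26). Against this, CXCR4, a chemokine receptor, was higher in CD8A T cells in 7 of 9 (median 0.37) and ITGB7, another integrin beta chain, in 5 of 9 (median 0.42). The median over the list was -0.26, beside -0.04 over all genes measured.

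Retention genes did not move as 1 list. Of 13 listed, 12 were in the table and 9 were measured, with a list median of -0.01. In every library 2 of the 9 were higher in CD8A T cells and 0 lower, where 1.7% of all genes were higher and 3.49% lower. RUNX3, a factor of CD8 T cells and of residency, was higher by a median of 0.77 and ITGA1, a collagen-binding integrin chain, by 0.42. ITGAE, the alpha chain of the integrin that binds E-cadherin on epithelium, was higher in 8 of 9 libraries (median 0.50). CD69, at a median of 4038 CPM in CD8A and 2517 CPM in CD4 T cells, was higher in CD8A T cells in 3 libraries and lower in 6, with a median log2 ratio of -0.02. Of 12 partner genes of LEF1 and KLF3 (CTNNB1, the TLE and CTBP genes, other Kruppel-like factors), 6 were measured and none kept 1 side in every library.

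Ligands were hardly found in T cells. CCL19 and CCL21, the ligands of CCR7, and MFSD2B, an S1P exporter, had 0 UMIs in T cells, where 3 UMIs would be 0.0649 CPM. Of the 10 genes of ligands and S1P handling, 9 were in the table and 1 was measured, SGPL1, the lyase that breaks S1P down, which was at a median of 18.7 CPM in T cells.

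Markers of other cells differed between the 2 kinds of T cells. The 4 NK markers had a summed median of 215 CPM (range 77.5 to 536) in CD8A and 45.7 CPM (22.5 to 320) in CD4 T cells and were higher in CD8A T cells in 9 of 9 libraries, although NCAM1 was at a median of 0 CPM in both. Plasma markers summed to a median of 3768 CPM in CD8A and 1206 CPM in CD4 T cells, and were higher in CD8A T cells in 7 of 9 libraries. B markers were higher in CD8A T cells in 9 of 9 libraries (medians of 42.8 CPM in CD8A and 38.6 CPM in CD4 T cells) and epithelial markers in 7 with 0 lower (4.76 CPM in CD8A and 0 CPM in CD4 T cells). Myeloid markers were lower in CD8A T cells in 7 of 9, with medians of 7.04 CPM (range 0 to 1130) in CD8A and 9.64 CPM (0 to 6027) in CD4 T cells. The highest of these values was in library 1, which held 385 CD4 T cells. Their part in the ratios was not tested. T cells with neither a CD8A nor a CD4 UMI, 5675 in all, had CCR7 at 133 CPM, LEF1 at 21.4 CPM, KLF3 at 18.2 CPM and S1PR1 at 8.46 CPM over all libraries. Having no UMI of a coreceptor does not show that a cell lacks it. Within the 9 libraries the cells of neither kind over CD4 T cells had medians of 0.08 for CCR7, -0.0017 for LEF1, -0.01 for KLF3 and -0.10 for S1PR1, and none of the 4 kept 1 side in every library, where 0.578% of all genes were higher and 6.63% lower.

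The 4 genes were rarely found in the same cell. In thinned T cells 9523 had a UMI of none, 1963 of 1, 205 of 2, 7 of 3 and 0 of 4. In the pooled cells each gene was found in a larger share of cells that held another of the 4 than of cells that did not. CCR7 was found in 25.5% of cells with S1PR1 and 13.8% of cells without, LEF1 in 4.78% of cells with CCR7 and 2.30% of cells without, and KLF3 in 4.47% of cells with CCR7 and 2.17% of cells without. These shares pool libraries that differ in all 4 levels, so the same question was put within libraries.

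T cells with a CCR7 UMI after thinning were compared with T cells without one in 9 libraries, 1615 with and 9827 without. LEF1 was higher in cells with CCR7 in 7 of 9 libraries, with a median log2 ratio of 0.70 (range -0.13 to 1.54). It had 56.4 CPM with CCR7 and 12.8 CPM without in library 1, and 18.7 CPM with and 2.07 CPM without in library 12, and only there did the intervals stand apart. In library 9, the library highest in CCR7, LEF1 had 26.7 CPM with CCR7 and 30.2 CPM without. S1PR1 was higher with CCR7 in 7 of 9 libraries (median 0.44, range -0.50 to 1.96), from 41 UMIs with and 124 without, and its intervals stood apart in library 12 alone. In CD4 T cells alone, which left 6 libraries, its median was -0.29. KLF3 was higher in 5 libraries and lower in 3, with a median of 0.03, although it had 45.1 CPM with CCR7 and 15.1 CPM without in library 11. Without thinning its median was 0.59. Of the 5883 genes that passed the filter, cells with CCR7 had 1.46% higher and 1.7% lower in every library, and neither LEF1 nor KLF3 was among them.

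Genes of the egress and homing list were mostly higher, and several retention genes lower, in T cells with CCR7. Of the 17 measured egress and homing genes 16 had medians above 0, as had 41.8% of all genes measured, with a list median of 0.25 beside -0.04 over all genes. Yet GPR183 alone was higher in all 9 libraries (median 0.48), where 1.46% of all genes were. CXCR5 (0.71), CD28 (0.65) and CXCR4 (0.53), the receptor for CXCL12, were each higher in 7 of 9. ITGB7, the beta chain shared by the integrins of gut homing and of ITGAE, was lower in 8 of 9 (median -0.29). Among the 9 retention genes RUNX3 was lower in all 9 libraries (median -0.48), where 1.7% of all genes were. RGS2 (-0.75), ITGA1 (-0.51) and ITGAE (-0.39) were lower in 8 of 9. CD69 had a median of 0.10 and RGS1, a brake on chemokine receptor signals, of -0.16.

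Markers of other cells differed in both directions. NK markers summed to a median of 72.5 CPM with CCR7 and 160 CPM without, and were lower with CCR7 in 9 of 9 libraries, and plasma markers to 211 CPM with and 1752 CPM without, lower in 8 of 9. Epithelial markers were lower in 7 libraries and higher in 0 (medians of 0 CPM with and 1.74 CPM without). Endothelial markers were higher with CCR7 in 8 of 9 libraries (103 CPM with and 90.4 CPM without), with CDH5 and LYVE1 at 0 in T cells, and B markers in 6 of 9 (41.9 CPM with and 40.3 CPM without). Their part in the ratios was not tested.

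The other 3 genes were used in the same way, in the fewer libraries that had at least 20 cells with them. T cells with LEF1 (270) were set against 6864 without in 5 libraries, where CCR7 was higher with LEF1 in 4 (median log2 ratio 0.41), KLF3 in 4 (0.48) and S1PR1 in 3 (0.13), while 2.75% of all genes were higher and 8.35% lower in every library. T cells with KLF3 (268) were set against 9337 without in 6 libraries, where LEF1 was higher with KLF3 in 5 (0.69), CCR7 in 4 (0.62) and S1PR1 in 3 (-0.11), while 1.44% of all genes were higher and 4.9% lower. T cells with S1PR1 (116) could be set against those without in libraries 2 and 9 alone. CCR7 (0.30), LEF1 (0.30) and KLF3 (0.61) were higher with S1PR1 in both, from 37, 6 and 7 UMIs, with intervals that overlapped, and 18.8% of all genes were higher and 35.2% lower in both.

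**Figure D4:**
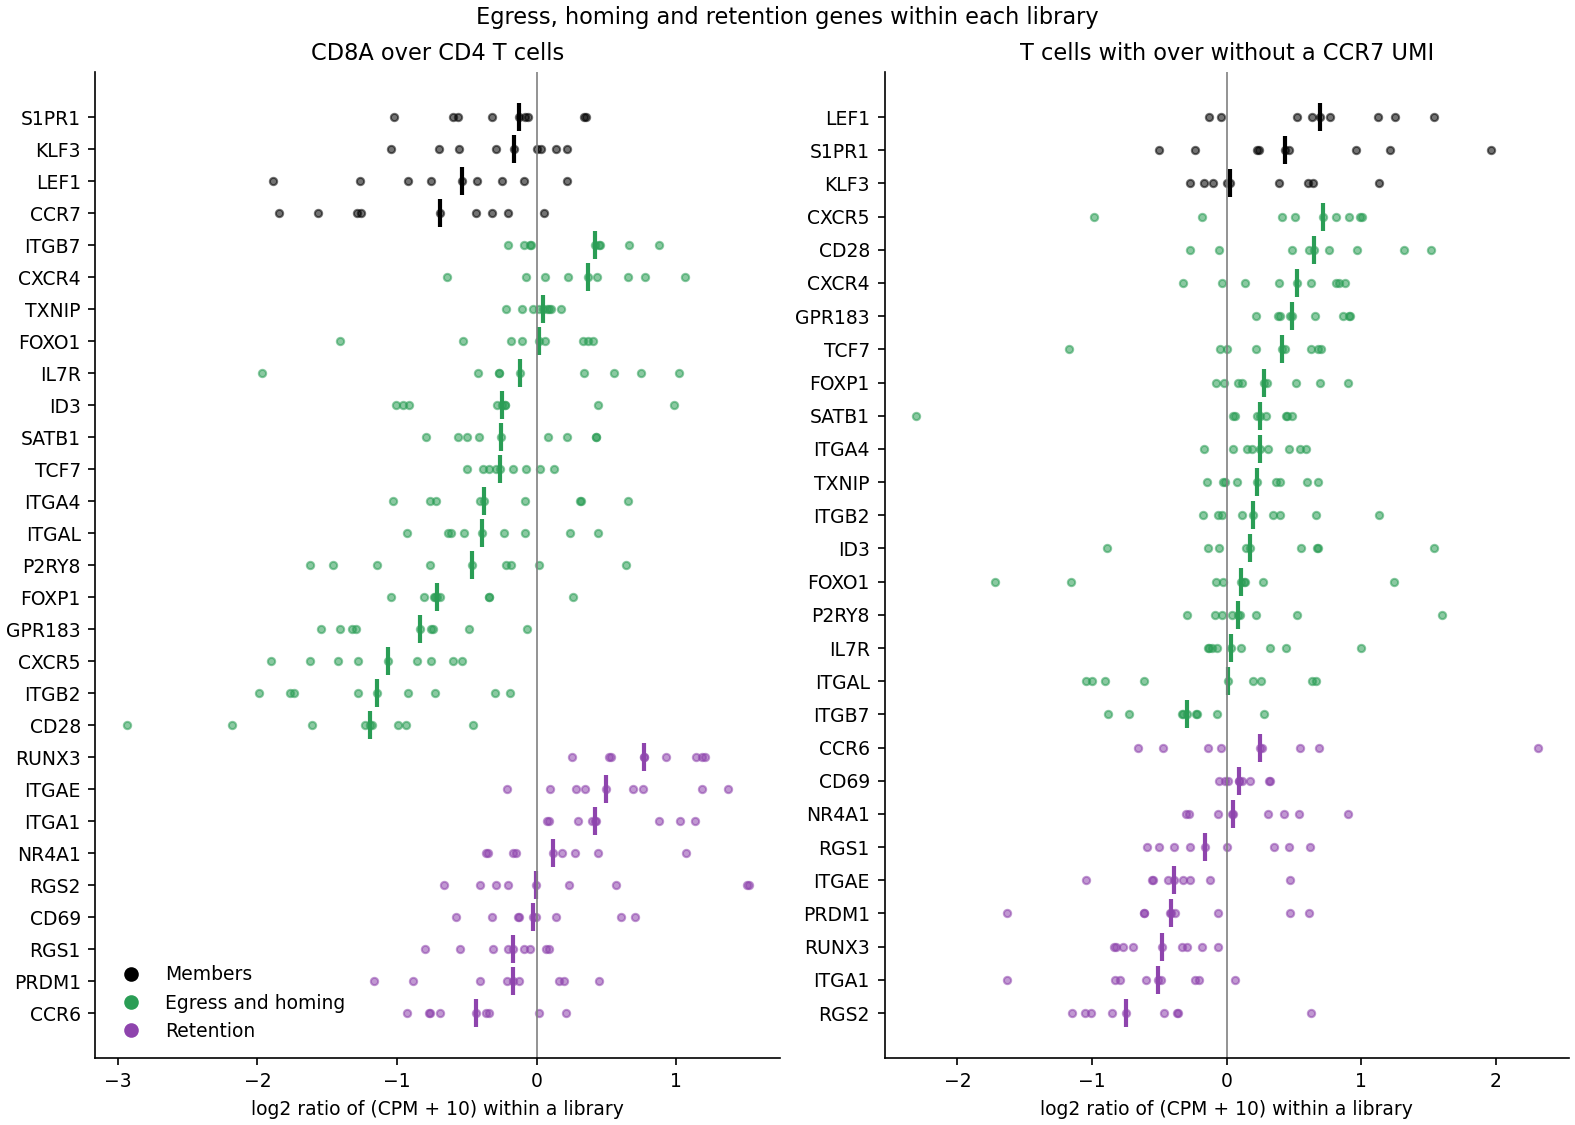
Log2 ratio of (CPM + 10) within each library (points) and its median (ticks) for the 4 genes (black), 16 of the 17 measured egress and homing genes (green) and the measured retention genes (purple), CD8A over CD4 T cells on the left and T cells with over without a CCR7 UMI on the right, where CCR7 itself is left out. CD28, ITGB2, CXCR5 and GPR183 lay below 0 in all 9 libraries on the left, and GPR183 above 0 in all 9 on the right.

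The genes whose levels ran most alike with each of the 4 were sought over 37 units, each a library's CD8A T, CD4 T, neither T or B cells with at least 50 cells, by Pearson r of log2(CPM + 10) centred on the library, among 5957 genes. LEF1 ran closest with CD28 (r = 0.92), IL6ST (0.92), INPP4B (0.90), MAGEH1 (0.88) and TOB1 (0.88). S1PR1 ran closest with LEF1 (0.81), followed by SMPD2 (0.80), CFP (0.80), TOB1 (0.79) and ZNF184 (0.78). CCR7 ran closest with ERCC6 (0.88), CAPG (0.88), FCMR (0.87), CCNL1 (0.87) and PMAIP1 (0.85), and KLF3 ran alike with CTDP1 (0.83), BCL11B (0.82), CHD3 (0.80) and NAA30 (0.80). Among the 4 genes, CCR7 and S1PR1 ran least alike (r = 0.31) and LEF1 and S1PR1 most (0.81). The units share libraries, depth and the contrast of T with B cells, so these values describe the table only. S1PR1 was below the 10 CPM filter and rested on few UMIs in most libraries, which limits its values of r. Over the 28 T cell units alone, NAA30 had an r of 0.19 with KLF3, while TOB1 had 0.85 with LEF1 and FCMR 0.85 with CCR7. The genes named for S1PR1 then had from 0.55 (ZNF184) to 0.73 (SMPD2), with 0.72 for LEF1.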

How the data were processed

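Droplet libraries of sorted colon leukocytes were made with 10x Genomics 3′ kits of versions 2 and 3 and sequenced on a NovaSeq, per the labels' protocols. The authors deposited raw UMI counts per gene and barcode, for which the file headers give version 3.1.0 of Cell Ranger. The authors' other deposited matrix has 20606 cells, with values that are the natural log of a corrected count to which 1 was added. The submitters' processing notes also name Seurat 3.1, with no role. How the counts were corrected, the genome build and the annotation are not stated there. The corrected values served to find the kept cells and as an alternative. Symbols came with the file for 23811 gene IDs, and 695 more from a table of gene names, to which 24126 IDs matched. Genes with no symbol held 21.1% of UMIs and stayed in the totals.

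UMIs were summed per library and kind of cell and scaled to CPM with Python 3.11.15, numpy 2.4.6, scipy 1.17.1 and pandas 2.3.3. Cells passing both the T and the B gate (1406, with a median of 8082 UMIs) were left out as possible doublets, and no doublet caller was run. Plasma cells had at least 3 MZB1 UMIs and none of the CD3 genes or MS4A1. Ratios are log2((CPM + 10)/(CPM + 10)) within a library with at least 20 cells of both kinds. A gene was counted as higher or lower where all libraries lay on the same side of 0, and measured genes had a mean of at least 10 CPM over the libraries' T cells. Libraries with no known label, some of the same colon sample, were not treated as replicates of a group, so no test was run and no mean with SD is given. The median and range over libraries, and exact Poisson 95% intervals that cover counting error only, stand in their place, and a count of 0 was read as allowing 3. The ratio was tested on simulated counts. The genes named are the 4, the gate and marker genes, the fixed lists and the 5 genes most like each. The values of 2 genes that this rule names are not reported here, though counts over lists include them. Genes outside these were named after their values were seen. The 4 genes and the lists were chosen with earlier results of these data known. Coordinates and sequences were not used here.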

Additional observations from a re-analysis of the deposited data

How the results depend on the processing

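No paired analysis was possible because the barcode numbers carry no replicate number of the labels, so label groups could not be paired, while each ratio pairs kinds of cells within a library. Over the planned and added alternatives other than leaving out 1 library, 296 values moved by less than the spread over libraries (counts by less than 1.5 times) and 33 moved further, and the medians of CCR7 and LEF1 in CD8A over CD4 T cells stayed below 0 under all 27 alternatives, those without 1 library included. Counts over all genes, of which 100 were higher and 205 lower in CD8A over CD4 T cells, 1233 higher and 70 lower in T over B cells, and 86 higher and 100 lower with over without CCR7, followed how many libraries had to agree. In the first barcode set alone they were 496 higher and 569 lower (CD8A over CD4), 2067 higher (T over B), and 298 higher and 724 lower (CCR7). In the second set alone they were 329 higher and 714 lower, 157 lower (T over B), and 370 higher and 360 lower, and 2 egress and homing genes were then higher in CD8A T cells in every library. Without libraries 3 and 13 they were 176 higher and 376 lower (CD8A over CD4). Thinned cells gave 126 lower in CD8A over CD4 T cells, and a S1PR1 median of -0.73. Cells not thinned gave 183 higher and 57 lower with CCR7, all barcodes over 500 UMIs 53 higher, the authors' corrected counts 167 higher, CD4 T cells alone 192 lower and T cells of neither kind alone 64 lower. Leaving out 1 library at a time gave from 99 to 169 lower with CCR7, with 157 without library 8 and 169 without library 13. KLF3 with over without CCR7 had a median of 0.59 in cells not thinned, 0.57 in corrected counts, 0.61 in the second set alone and -0.07 in the first, and 0.03 as reported. LEF1 had 1.25 in T cells of neither kind. In T over B cells a pseudocount of 1 CPM gave 1.62 for S1PR1 and 3.66 for LEF1, no filter on low genes gave 125 lower, and B cells with MS4A1 gave -0.30 for CCR7, 1.95 for LEF1, 748 higher and 838 lower. The median LEF1 level in T cells was 29.6 CPM in the first set alone. The B cells with MS4A1, the CD4 T cells and T cells of neither kind alone, and the removal of libraries 3 and 13 were chosen after seeing the data. Where the construction of the alternative, with fewer libraries, cells or another pseudocount, does not show it, the cause was not tested. S1PR1 ratios rest on few UMIs in most libraries, which limits them.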

Other observations

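T cells with and without CCR7 also differed in genes outside the lists, named after their values were seen. Of all genes measured, 1.46% were higher and 1.7% lower with CCR7 in every library. Several genes of cytotoxic cells were lower with CCR7 in 9 of 9 libraries, but GZMK was not, being higher in 5 and lower in 4 with a median log2 ratio of 0.39 (range -2.17 to 2.09). GZMA had a median log2 ratio of -2.86 (142 CPM with CCR7 and 2176 CPM without, over all 9 libraries), GZMB of -2.27 (465 CPM with and 3368 CPM without), the chemokine CCL5 of -1.64 (603 CPM with and 1720 CPM without) and GNLY, a pore-forming peptide of granules, of -1.60 (599 CPM with and 1688 CPM without). HOPX, a factor of effector T cells, had -2.28, and KLRD1, a receptor of NK cells and cytotoxic T cells, -1.39. The immunoglobulin gene IGKC (-4.33) and JCHAIN (-3.34), which T cells do not make, were lower as well, to 228 CPM with CCR7 against 4351 CPM without for IGKC. Genes higher with CCR7 in all 9 libraries had smaller ratios. CHI3L2 had a median of 0.80, RIPOR2 of 0.72, LMNA of 0.71, DDIT4 of 0.68 and DUSP2, a phosphatase of activated lymphocytes, of 0.62, and IL23A, a subunit of interleukin 23, had 0.57 (50.4 CPM with and 26.5 CPM without).

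T cells with a LEF1 or a KLF3 UMI could be set against T cells without one in 5 and 6 libraries. With LEF1, GZMB (-3.54), CCL5 (-2.89), ITGA1 (-1.63), PRDM1 (-1.62) and ITGB7 (-0.66) were lower in all 5, and CXCR4 (0.43) and TXNIP (0.33) higher, where 8.35% of all genes were lower and 2.75% higher. Cells with LEF1 numbered 22 to 77 per library. PRDM1 had 1 UMI in them and 288 in cells without LEF1, and ITGA1 had 18 and 1044, so the added 10 CPM weighs on these ratios. With KLF3, GZMA (-2.53), CCL5 (-1.53) and GZMB (-1.48) were lower in all 6, as were ITGA4 (-0.44), ITGB7 (-0.40) and ITGAE (-0.34), and SATB1 (0.36) and SGPL1 (0.61) were higher in all 6, where 4.9% of all genes were lower and 1.44% higher.

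The order of the labels is not known to be that of the barcode numbers. In the list of labels, places 4 and 6 hold the host fractions NHP_43 and NHP_43B, and barcode numbers 4 and 6 are the pair that shares 5323 barcodes. The files used here do not say whether the numbers follow the list, so no level above is tied to a label.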
